A study of Mus musculus with 6 samples.

Results

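Among transcripts bound to phosphorylated ribosomal protein S6 in the anterior hypothalamus of warm-challenged mice, 48 remained once named gene families and single genes, mostly of immediate early genes, neuropeptides, channels and hemoglobins, had been set aside by symbol. They were chosen from 13724 rows of an RPKM table (reads per kilobase of gene, scaled to the reads of the library) by a mean of 5 RPKM or more over the immunoprecipitates (IP) and a log2 ratio of immunoprecipitate over input of at least 1 in each of 3 numbered pairs. Ratios were taken as log2((IP RPKM + 1)/(input RPKM + 1)), which understates the ratio of low transcripts. In all, 75 rows met both limits. Of these, 27 belong to symbols starting with Fos, Jun, Egr, Nr4a, Hba, Hbb, Dusp, Kcn, Gadd45, Gri, Rgs, Nab or Sik, or to single genes such as Adcyap1, Bdnf, Crh and Arc, and were set aside. The 48 therefore still hold some immediate early and neuropeptide genes whose symbols were not on that list, such as Apold1, Pdyn and Pnoc.

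The groups were 3 IP libraries (RNA bound to phosphorylated S6) and 3 input libraries (total RNA), 1 of each from warm challenges 1, 2 and 3 in wild type C57Bl6/J mice. Both groups came from warmed mice, and no group at another temperature is part of the comparison. The labels call the tissue preoptic neurons, while the protocol describes the whole anterior hypothalamus cut from brain slices, so glia and vessels enter the input. The labels do not give ages, numbers of mice or pooling, nor say that the 3 challenges used separate animals, so any p-value measures only the spread between these libraries.

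Ribosomal protein S6 is phosphorylated by kinases downstream of mTOR and MAP kinase signalling, and in neurons this mark rises after firing. An antibody against the mark pulls down ribosomes together with the mRNAs they carry, a method called PhosphoTRAP. Transcripts of cells that carry the mark are thereby enriched over the total RNA of the tissue. In the preoptic area, warmth activates neurons that lower heat production and raise heat loss.

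Because the limits were set on the same 6 libraries, the ratios below describe how the 48 transcripts were chosen and are not tested. Their IP means ranged from 6.33 to 520 RPKM with a median of 34.2 RPKM, and their input means from 0.914 to 178 RPKM with a median of 10.1 RPKM. The mean log2 ratio over the 3 pairs ranged from 1.09 to 2.51 with a median of 1.62, against a median of -0.17 over all 13724 rows. In the limma fit across 12328 genes (adjusted p under 0.05, Benjamini-Hochberg), 35 of the 48 were called higher in IP, beside 0.892% of all genes tested. With the warm challenge as a block 46 were called, beside 1.33% of all genes, and only Cdk12 and Pdyn were called in neither fit. Without 1 library the count ran from 0 (without input 2 or input 3; 46 at an unadjusted p under 0.05 in either case) through 2 (without input 1), 3 (without IP 2) and 12 (without IP 3) to 43 (without IP 1). The limits chose on this same contrast, so nothing is read from these counts. The rows past both limits before the families were set aside made up 0.546% of the table and 0.91% of the 8246 rows at 5 RPKM or more. All 3 IP values lay above all 3 input values for 45 of the 48, as for 6.46% of all rows, and the groups overlapped for Pcdhgc5, Pnoc and Plagl1.

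**Figure D1:**
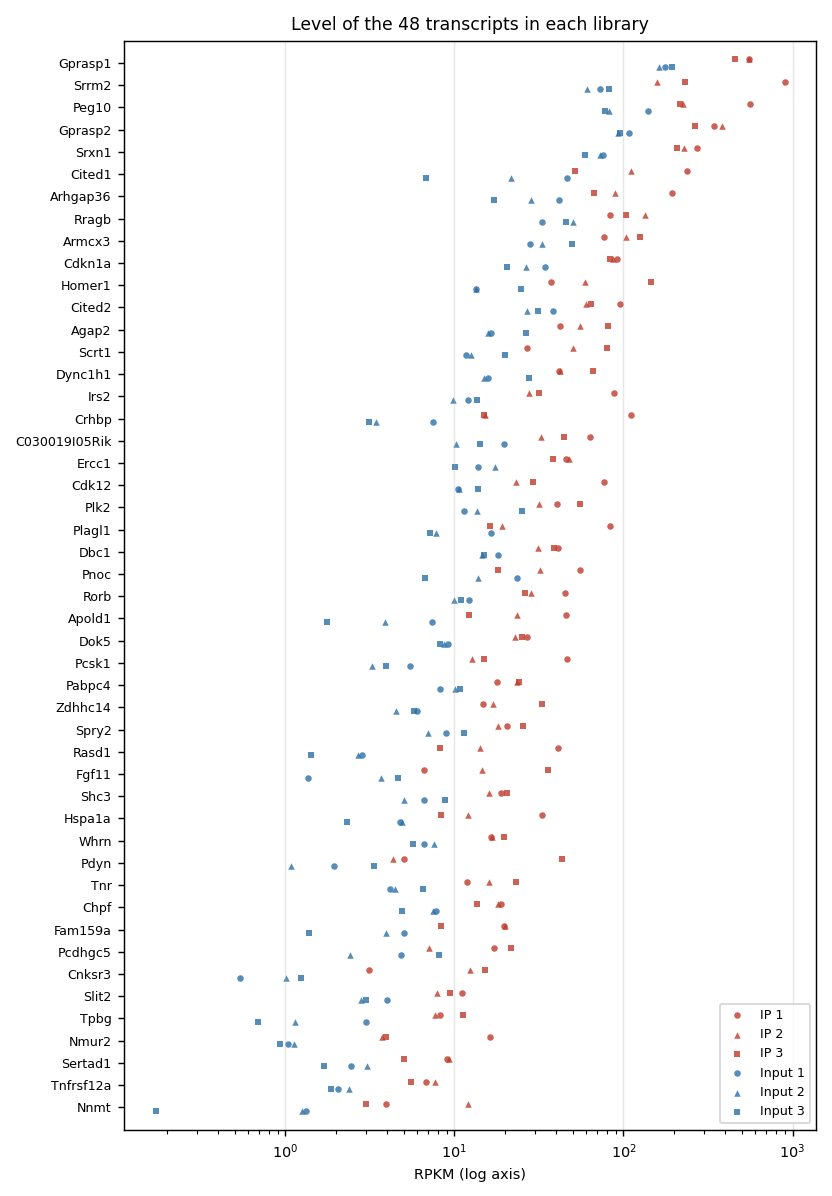
RPKM of each of the 48 transcripts (rows, by IP mean, highest at the top) on a log axis in 3 IP libraries (red) and 3 input libraries (blue), with circles, triangles and squares for warm challenges 1, 2 and 3. Gprasp1 has the highest IP mean, 520 RPKM, and Nnmt the lowest, 6.33 RPKM.

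**Figure D2:**
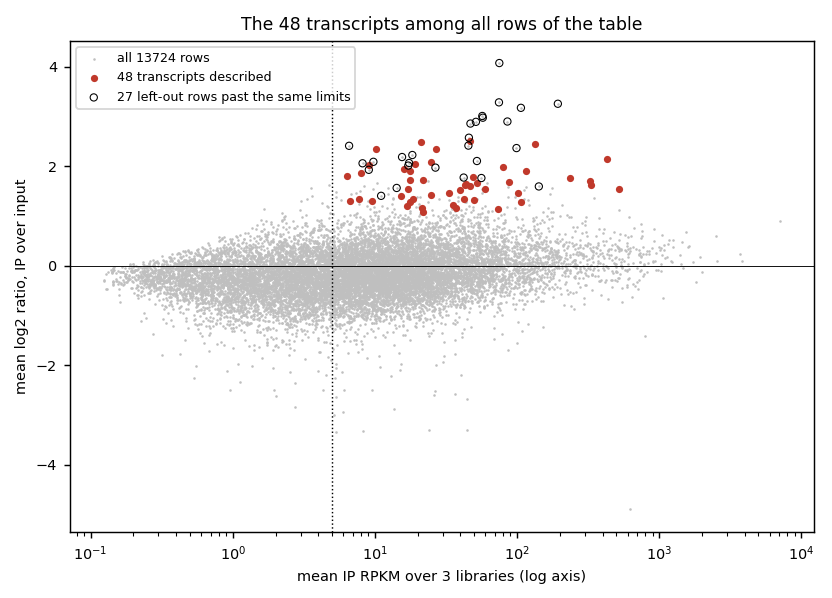
Mean log2 ratio of IP over input (vertical axis) against mean IP RPKM (log axis) for all 13724 rows (grey), the 48 transcripts (red) and the 27 rows of the families set aside (open circles); the dotted line marks 5 RPKM. The 48 lie between mean ratios of 1.09 and 2.51, and the open circles between 1.41 and 4.08.

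At the edge of the choice, Pabpc4, Pdyn, Cdk12 and Cited2 were the last inside, with lowest ratios of 1.04, 1.03, 1.03 and 1.01. Pak6, Zrsr1, Npas4 and Gpr158 were the first outside, with lowest ratios of 0.99, 0.99, 0.98 and 0.98. Atf3, a stress-induced transcription factor, passed the ratio limit in every pair but averaged 4.73 RPKM in IP. The least abundant transcript kept was Nnmt at 6.33 RPKM.

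Leaving a pair out gives a reading for lists chosen in 2 pairs, not for the 48, whose choice used every pair. Each such list held 47 of the 48, so the rows that passed the third pair are nearly the same transcripts. The shares below describe the lists and do not test the 48. Rows chosen by the same limits in 2 pairs were read in the third pair, whose libraries took no part in choosing them. Of 57 rows chosen in pairs 1 and 3, 48 (84.2%) reached a ratio of 1 in pair 2, against 3.19% of the 8221 rows with a mean of at least 5 RPKM in those IP libraries. Of 63 rows chosen in pairs 1 and 2, 48 (76.2%) reached it in pair 3, against 7% of 8125 rows. Of 208 rows chosen in pairs 2 and 3, 47 (22.6%) reached it in pair 1, against 3.30% of 8027 rows. The median ratio in the pair left out was 1.39 in pair 2, 1.31 in pair 3 and 0.36 in pair 1. The share was smallest for pair 1, though 67.8% of those 208 rows lay above 0 there. The counts past the limit were 48, 48 and 47, so the shares differed mainly through list lengths of 57, 63 and 208.

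**Figure D3:**
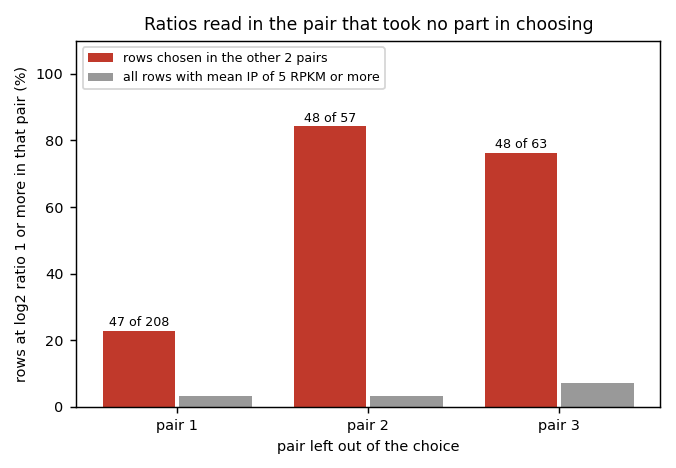
Percent of rows at a log2 ratio of 1 or more in the pair left out (vertical axis), for each pair left out (horizontal axis), for rows chosen in the other 2 pairs (red) and for all rows with a mean of at least 5 RPKM in those IP libraries (grey), the families set aside being left out of both. The red bars stand at 22.6%, 84.2% and 76.2% and the grey ones at 3.30%, 3.19% and 7%.

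The 48 transcripts differed in how evenly the pairs shared the enrichment. The span between the lowest and highest of the 3 ratios was under 0.5 for 23 of them and 1 or more for 16. The highest ratio stood in pair 1 for 19 transcripts, in pair 2 for 12 and in pair 3 for 17. In 12 of the 48 (25%) IP 1 was at least 2 times both other IP libraries, against 2.72% of the 8246 rows with an IP mean of at least 5 RPKM. These were Arhgap36, Cdk12, Cited1, Crhbp, Hspa1a, Irs2, Nmur2, Pcsk1, Peg10, Plagl1, Rasd1 and Srrm2. In Fgf11, Homer1 and Pdyn, IP 3 was at least 2 times both others, and in Nnmt IP 2 was. Input 1 was at least 2 times both other inputs in 4 of the 48 (8.33%), against 0.437% of the same rows. The same held for input 2 in 0 and for input 3 in 0 of the 48. For 31 of the 48 (64.6%) the 3 challenges had the same order in IP as in input, against 26.0% of those 8246 rows. The limit on each pair's ratio itself favours such shared order. All shares in this paragraph come from values that the limits used, so they are description and not a test.

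**Figure D4:**
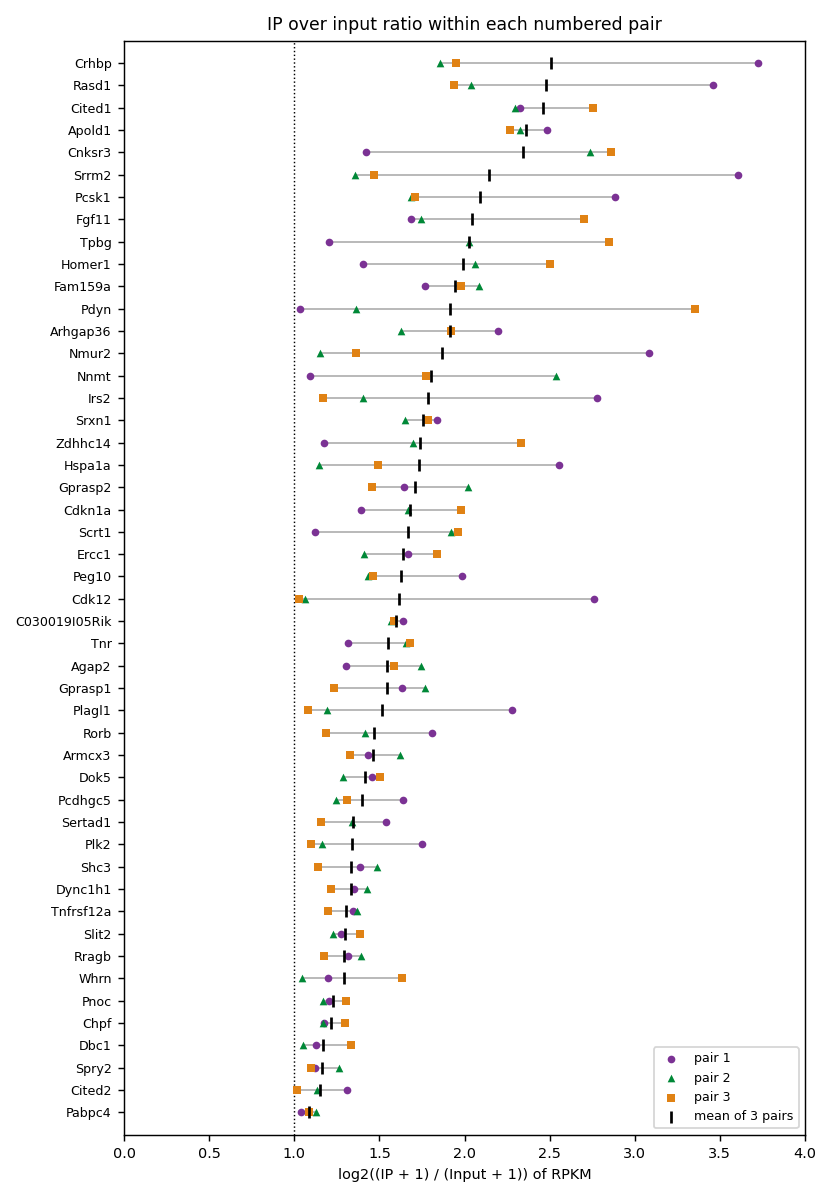
Log2 ratio of IP over input within pair 1 (purple circles), pair 2 (green triangles) and pair 3 (orange squares) for the 48 transcripts, ordered by the mean of the 3 pairs (black bars), with the limit of 1 dotted and grey lines from the lowest to the highest pair. Crhbp has the highest mean, 2.51, and spans 1.86 to 3.72, while Pabpc4 has the lowest, 1.09.

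Promoter sequence, which the choice did not use, was searched for motifs of activity-regulated transcription, since several of the 48 are known targets of cAMP and calcium signalling. RefSeq promoters (build GRCm38.p6, from 250 bases before to 50 bases after the start) were found for 37 of the 48, with 46 promoter entries in all. The full cAMP response element TGACGTCA stood in 3 of the 46 (6.52%), against 2.99% of 12083 promoters of genes in the table. The shorter core TGACG, which every full element also contains, stood in 32.6% against 29.7%. The AP-1 motif TGANTCA stood in 6.52% against 4.97%, the EGR motif GCGNGGGCG in 10.9% against 10.5%, the SRF CArG box in 2.17% against 1.34% and the MEF2 motif in 0% against 1.70%. CACGA, a core bound by NPAS4, stood in 26.1% against 20.2%, the E-box CACGTG in 10.9% against 9.56% and TATAAA in 13.04% against 7.18%. Both strands were searched throughout. These are shares of letters in a window, and most lay near those of the other genes. The promoters with the full element belong to Pcsk1, Plk2 and Chpf, and the one with a CArG box to Cited1; all 4 are shown as the promoters with a full cAMP response element or a CArG box, those of the members with AP-1 or EGR matches alone not being printed, with the full element or CArG box in capitals.

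The Pcsk1 promoter (chr13:75089607-75089906, plus strand) has its element 78 bases before the start, that of Plk2 (chr13:110394794-110395093, plus strand) lies 62 bases before it, and Chpf (chr1:75479422-75479721, minus strand) has elements 86 and 41 bases before it. The Cited1 CArG box (chrX:102252132-102252431, minus strand) begins 45 bases before the start and has a TATAAA downstream.
Pcsk1: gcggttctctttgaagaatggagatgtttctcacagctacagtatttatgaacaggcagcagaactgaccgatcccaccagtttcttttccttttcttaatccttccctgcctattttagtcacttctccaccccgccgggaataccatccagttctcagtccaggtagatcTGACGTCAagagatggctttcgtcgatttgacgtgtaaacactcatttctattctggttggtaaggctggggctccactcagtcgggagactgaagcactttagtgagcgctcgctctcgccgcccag
Plk2: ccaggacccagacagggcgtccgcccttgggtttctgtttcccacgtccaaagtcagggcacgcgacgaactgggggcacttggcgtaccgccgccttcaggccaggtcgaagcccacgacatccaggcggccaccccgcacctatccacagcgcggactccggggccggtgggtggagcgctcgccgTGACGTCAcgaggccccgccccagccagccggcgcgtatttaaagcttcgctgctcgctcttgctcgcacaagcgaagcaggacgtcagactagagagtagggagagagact
Chpf: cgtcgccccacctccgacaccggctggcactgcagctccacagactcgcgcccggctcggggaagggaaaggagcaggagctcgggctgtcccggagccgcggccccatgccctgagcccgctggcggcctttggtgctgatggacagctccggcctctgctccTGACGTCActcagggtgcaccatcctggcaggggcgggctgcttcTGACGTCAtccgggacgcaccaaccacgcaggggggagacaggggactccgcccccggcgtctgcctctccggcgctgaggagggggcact
Cited1: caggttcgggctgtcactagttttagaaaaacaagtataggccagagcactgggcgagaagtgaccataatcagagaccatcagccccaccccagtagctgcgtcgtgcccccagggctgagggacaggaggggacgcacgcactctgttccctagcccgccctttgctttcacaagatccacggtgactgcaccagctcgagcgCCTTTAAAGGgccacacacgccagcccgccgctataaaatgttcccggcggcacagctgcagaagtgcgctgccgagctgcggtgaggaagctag

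By hand, from their known roles, the 48 were sorted into 6 groups. Peptides, ligands, their processing and receptors, with Fgf11 placed here for its gene family, accounted for 8: Crhbp, Pcsk1, Pdyn, Pnoc, Nmur2, Fgf11, Slit2 and Tnfrsf12a. Their mean log2 ratios ranged from 1.23 to 2.51 and their IP means from 6.67 to 47.0 RPKM. Crhbp, the secreted protein that binds and sequesters corticotropin-releasing hormone, had 111, 15.1 and 14.9 RPKM in IP 1, 2 and 3, against 7.49, 3.43 and 3.11 RPKM in inputs 1, 2 and 3. Its mean log2 ratio was 2.51 ± 1.05 (SD over 3 pairs), with IP 1 standing far above IP 2 and IP 3 and no overlap with the inputs. Pcsk1 encodes a prohormone convertase that cuts neuropeptide precursors in dense core vesicles. It had 46.6, 12.6 and 15.1 RPKM in IP 1, 2 and 3, against 5.45, 3.24 and 3.92 RPKM in the inputs, a mean ratio of 2.09 ± 0.69. Its relative Pcsk2, the other main neuronal convertase, had a mean ratio of 0.86 and the convertase inhibitor gene Pcsk1n -0.32.

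The 2 opioid precursors in this group differed in their spread. Pnoc, the precursor of nociceptin, had 55.6, 32.04 and 18.1 RPKM in IP 1, 2 and 3, against 23.6, 13.7 and 6.72 RPKM in the inputs. Its ratio was nearly the same in each pair, 1.23 ± 0.07, but the challenges differed so much in both fractions that IP 3 lay below input 1. Pdyn, the precursor of dynorphins, had 5.04, 4.35 and 43.5 RPKM in IP 1, 2 and 3, against 1.95, 1.08 and 3.35 RPKM in the inputs, a mean ratio of 1.92 ± 1.26. Pdyn was thus high in IP 3 alone, and without pair 3 its IP mean of 4.70 RPKM would have missed the floor. Nmur2, a receptor for the neuropeptides neuromedin U and neuromedin S, had 16.2, 3.71 and 3.96 RPKM in the IP libraries, against 1.03, 1.12 and 0.931 RPKM in the inputs. It was high in IP 1, and without pair 1 its IP mean was 3.84 RPKM.

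Fgf11, an intracellular member of the fibroblast growth factor family that is not secreted and acts on sodium channels, showed the opposite order. It had 6.61, 14.6 and 35.8 RPKM in IP 1, 2 and 3, against 1.37, 3.66 and 4.66 RPKM in the inputs, a mean ratio of 2.04 ± 0.57. The related genes Fgf12, Fgf13 and Fgf14 were more abundant, with IP values from 42.2 to 137 RPKM, and had mean ratios of 0.19, 0.31 and 0.42. Slit2, a secreted axon guidance ligand, had 11.1, 7.91 and 9.46 RPKM in IP and 4, 2.81 and 3.01 RPKM in the inputs, a steady ratio of 1.30 ± 0.08. Its relatives Slit1 and Slit3 had 0.78 and 0.51. Tnfrsf12a, the receptor of the cytokine TWEAK, had 6.77, 7.69 and 5.54 RPKM in IP and 2.06, 2.37 and 1.86 RPKM in the inputs.

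Nuclear regulators made up 10 of the 48: Cited1, Cited2, Scrt1, Rorb, Plagl1, Sertad1, Cdkn1a, Cdk12, Srrm2 and Ercc1. Cited1, a transcriptional coactivator that binds CBP, had the highest lowest ratio of all 48. It had 237, 111 and 51.4 RPKM in IP 1, 2 and 3, against 46.6, 21.7 and 6.76 RPKM in inputs 1, 2 and 3, with pair ratios of 2.32, 2.30 and 2.75. Both fractions were highest in challenge 1 and lowest in challenge 3, and IP 3 lay only just above input 1, while the ratio in each pair was above 2. Cited2, a coactivator of the same family, had 95.7, 60.2 and 64.5 RPKM in IP and 38.1, 26.9 and 31.4 RPKM in the inputs, a ratio of 1.15 ± 0.15. Cited4 had ratios of -0.91, 0.14 and 1.14 in the 3 pairs.

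Cdkn1a, an inhibitor of cyclin-dependent kinases induced by p53 and by stress, was among the most even in IP. It had 91.6, 86.2 and 83.8 RPKM in IP 1, 2 and 3, against 34.3, 26.4 and 20.5 RPKM in the inputs, a ratio of 1.68 ± 0.30. Input 1 was the highest input and input 3 the lowest, while the IP values lay close together. Cdkn1b, a related inhibitor, had a mean ratio of 0.37. Rorb, an orphan nuclear receptor with roles in circadian and sensory neurons, had 45.1, 28.2 and 26.1 RPKM in IP, against 12.1, 9.94 and 10.9 RPKM in the inputs, a ratio of 1.47 ± 0.32, while Rora had -0.25. Scrt1, a zinc finger repressor found in neurons, had 26.7, 50.3 and 80.1 RPKM in IP, against 11.7, 12.5 and 19.8 RPKM in the inputs. Its relative Scrt2 was lower, at 7.19, 7.81 and 15.6 RPKM in IP and 3.34, 3.04 and 6.10 RPKM in the inputs, and had pair ratios of 0.92, 1.13 and 1.23. Both Scrt genes were highest in challenge 3 in IP and in input, and Scrt2 missed the limit in pair 1.

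Plagl1, an imprinted zinc finger transcription factor, had 83.5, 19.1 and 16.2 RPKM in IP, against 16.4, 7.81 and 7.15 RPKM in the inputs. IP 1 was the high library, and IP 3 lay just under input 1. Sertad1, a regulator of E2F-dependent transcription, had 9.02, 9.26 and 5.02 RPKM in IP and 2.46, 3.05 and 1.70 RPKM in the inputs. Its family members Sertad2, Sertad3 and Sertad4 had mean ratios of -0.06, -0.87 and -0.51.

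For 2 genes of RNA synthesis and processing the ratio was by far the largest in pair 1. Srrm2, a scaffold protein of splicing speckles, had 902, 158 and 229.7 RPKM in IP 1, 2 and 3, against 73.1, 61.02 and 82.3 RPKM in the inputs, and pair ratios of 3.61, 1.36 and 1.47. Cdk12, a kinase of the RNA polymerase II tail, had 76.7, 23.3 and 29.1 RPKM in IP, against 10.5, 10.6 and 13.8 RPKM in the inputs, and pair ratios of 2.76, 1.06 and 1.03. Srrm1, another speckle protein, was also high in IP 1, at 157 RPKM, but had ratios of -0.08 and -0.25 in pairs 2 and 3. The neuronal splicing factor Srrm4 had ratios of 1.34, 1.00 and 0.83.

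Ercc1, a subunit of a DNA repair nuclease, had 45.9, 47.8 and 38.5 RPKM in IP, against 13.7, 17.4 and 10.1 RPKM in the inputs, a ratio of 1.64 ± 0.22. In the RefSeq order of GRCm38.p6 its neighbour on one side is Fosb, on the opposite strand, which had 89.1, 63.2 and 73.1 RPKM in IP and 4.78, 2.81 and 3.04 RPKM in the inputs. The neighbour on the other side, Cd3eap, had a mean ratio of -0.30. The RefSeq gene bodies of Ercc1 and Fosb do not overlap, but no source used here states the annotation or strand handling behind the RPKM. Whether reads from Fosb enter the Ercc1 value was not tested.

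Intracellular signalling held 10 of the 48: Rasd1, Agap2, Arhgap36, Irs2, Shc3, Dok5, Spry2, Cnksr3, Rragb and Plk2. Rasd1, a Ras-like GTPase induced by dexamethasone and by light in the circadian clock, had 41.2, 14.1 and 8.26 RPKM in IP 1, 2 and 3, against 2.84, 2.68 and 1.41 RPKM in the inputs. Its ratio of 2.48 ± 0.85 was the second highest mean of the 48. Rasd2, its closest relative, had 22.1, 50.7 and 91.7 RPKM in IP and 18.7, 20.05 and 29.5 RPKM in the inputs. The order over challenges thus differed between the 2 genes, with Rasd1 highest in IP 1 and Rasd2 highest in IP 3.

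Arhgap36, which antagonizes protein kinase A and activates Hedgehog signalling, had 193, 89.1 and 67.2 RPKM in IP 1, 2 and 3, against 41.4, 28.2 and 17.1 RPKM in the inputs, a ratio of 1.91 ± 0.29. As with Cited1, both fractions were highest in challenge 1 and lowest in challenge 3. Agap2, a GTPase-activating protein that enhances PI3 kinase signalling, had 42.2, 55.3 and 81.5 RPKM in IP, against 16.5, 15.8 and 26.5 RPKM in the inputs, a ratio of 1.54 ± 0.22. Its relatives Agap1 and Agap3 were of similar abundance and had mean ratios of 0.10 and 0.32.

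Regulators of receptor tyrosine kinase signalling formed a set of 4. Irs2, an insulin receptor substrate, had 88.4, 27.5 and 31.7 RPKM in IP, against 12.04, 9.77 and 13.5 RPKM in the inputs, with IP 1 high. Irs1 and Irs4 had mean ratios of 0.49 and 0.15. Dok5, a docking protein of Trk and Ret receptors, had 26.8, 22.7 and 25.1 RPKM in IP and 9.16, 8.71 and 8.23 RPKM in the inputs, one of the steadiest ratios at 1.41 ± 0.11. Shc3, an adaptor found in neurons, had 18.8, 15.9 and 20.5 RPKM in IP and 6.60, 5.06 and 8.76 RPKM in the inputs, a ratio of 1.33 ± 0.18, while Shc1, Shc2 and Shc4 had 0.21, -0.87 and 0.66. Spry2, a feedback inhibitor of MAP kinase signalling, had 20.6, 18.2 and 25.5 RPKM in IP and 8.93, 6.99 and 11.4 RPKM in the inputs, a ratio of 1.16 ± 0.09. Spry4 had a mean ratio of 0.96 and Spry1 -0.29. In the Irs, Dok, Shc and Spry families 1 member each met the limits, and the differences from the relatives were not tested.

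Cnksr3, a scaffold of the MAP kinase pathway, was the lowest in the inputs of this group. It had 3.12, 12.4 and 15.2 RPKM in IP 1, 2 and 3, against 0.538, 1.01 and 1.23 RPKM in the inputs, a ratio of 2.34 ± 0.80, with IP 1 low. Plk2, a Polo-like kinase induced by synaptic activity that weakens excitatory synapses, had 40.7, 31.7 and 54.95 RPKM in IP, against 11.4, 13.6 and 25.1 RPKM in the inputs. Its ratio of 1.34 ± 0.36 stood beside 0.13 for Plk3, which is also inducible. Rragb, one of the Rag GTPases that bring mTOR complex 1 to lysosomes in response to amino acids, had 83.2, 134 and 104 RPKM in IP, against 32.9, 50.3 and 45.6 RPKM in the inputs, a ratio of 1.29 ± 0.11. The other Rag genes Rraga, Rragc and Rragd had mean ratios of 0.39, -0.55 and -0.69.

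Genes of receptor sorting and their relatives numbered 3 and included the most abundant of the 48. Gprasp1 encodes a protein that directs G-protein-coupled receptors to lysosomes after internalization, and Gprasp2 is its close relative. Gprasp1 had 551, 556 and 455 RPKM in IP 1, 2 and 3, against 177, 163 and 193 RPKM in the inputs. Gprasp2 had 341, 381 and 264 RPKM in IP, against 108, 92.96 and 95.6 RPKM in the inputs. Armcx3, an armadillo repeat protein of the mitochondrial outer membrane that takes part in mitochondrial transport in neurons, had 76.96, 103 and 126 RPKM in IP, against 27.9, 32.8 and 49.6 RPKM in the inputs. Their ratios of 1.54 ± 0.28, 1.71 ± 0.29 and 1.46 ± 0.15 were each highest in pair 2.

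These 3 genes stand in one stretch of the X chromosome that holds the Armcx and Gprasp family. All 8 family rows of the table had a positive mean ratio, with a median of 1.12, from 0.58 for Armcx1 to 1.71 for Gprasp2. The median over all rows was -0.17. The family median is lifted by Gprasp1, Gprasp2 and Armcx3, which were chosen for high ratios. The family rows not chosen, Armcx1, Armcx6, Armcx5, Armcx2 and Bhlhb9, had 0.58, 0.73, 0.80, 1.02 and 1.21. Bhlhb9, the next gene after Gprasp2 and a member of the same family, had 58.1, 65.0 and 56.1 RPKM in IP and 19.7, 24.7 and 32.8 RPKM in the inputs, and missed the limit in pair 3 alone (0.76). Armcx2 missed it in pair 2 alone (0.86). The 2 unrelated rows that lie between them, Zmat1 and Tceal6, had mean ratios of -0.81 and 0.47. In RefSeq the bodies of Gprasp2 and Bhlhb9 overlap, and whether reads were shared between them was not tested. The family was singled out after its values were seen, and its members are related in sequence.

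**Figure D5:**
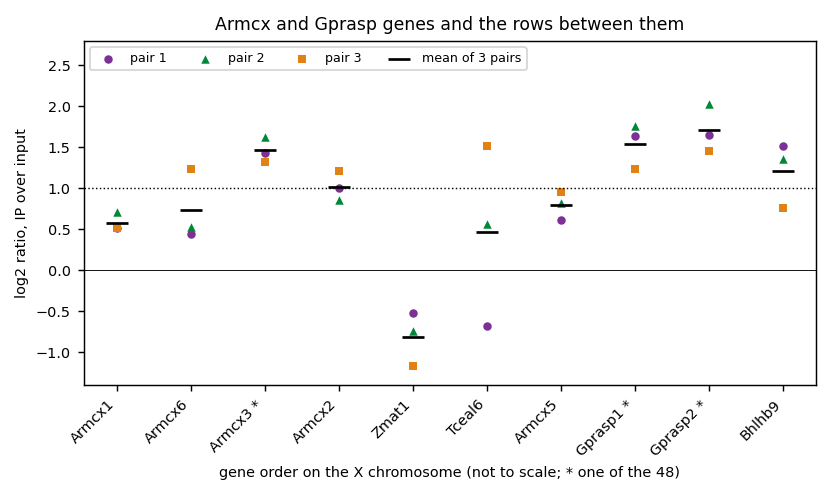
Log2 ratio of IP over input in pairs 1 (purple), 2 (green) and 3 (orange) and their mean (black bars) for 10 neighbouring rows in their order on the X chromosome, with the limit of 1 dotted and asterisks on 3 of the 48 transcripts. The 8 Armcx, Gprasp and Bhlhb9 rows lie above 0 in every pair, while Zmat1 lies below 0 in every pair.

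Of 47 members placed in RefSeq, 6 were on the X chromosome (12.8%), against 3.91% of 8134 placed rows with an IP mean of at least 5 RPKM. They were Gprasp1, Gprasp2, Armcx3, Arhgap36, Cited1 and Rragb, of which 3 belong to the one stretch. As a whole, 317 X rows of that abundance had a median mean ratio of -0.03, against -0.10 for 7798 rows elsewhere. A neighbouring row with a mean ratio of at least 1 stood beside 7 of the 47 (14.9%), against 3.27% of 8115 rows. These neighbours were Armcx2, Gprasp1, Gprasp2 and Bhlhb9 in the X stretch, Fosb beside Ercc1, Nlgn2 beside Fgf11, Scrt2 beside Srxn1 and Cbln4 beside Dok5. Gprasp1 counts only through Gprasp2, which was itself chosen for its ratio. The X stretch was singled out after its values were seen. With so few rows, no clustering is read from this share.

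Genes of the synapse, matrix and cytoskeleton numbered 8: Homer1, Tnr, Pcdhgc5, Chpf, Tpbg, Whrn, Dync1h1 and Zdhhc14. Homer1 encodes a postsynaptic scaffold with a short activity-induced form, which gene-level values cannot tell from the long forms. It had 37.1, 59.4 and 145 RPKM in IP 1, 2 and 3, against 13.4, 13.5 and 24.7 RPKM in the inputs, a ratio of 1.99 ± 0.55. IP 3 was the high library and IP 1 the low one. Homer2, whose product is a scaffold of the same kind, had a mean ratio of -0.95.

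Tnr, an extracellular matrix glycoprotein of perineuronal nets, had 11.9, 16.1 and 23.2 RPKM in IP, against 4.18, 4.42 and 6.55 RPKM in the inputs, a ratio of 1.55 ± 0.21. Chpf, an enzyme that builds chondroitin sulfate chains of the same matrix, had 18.9, 18.05 and 13.5 RPKM in IP, against 7.83, 7.49 and 4.91 RPKM in the inputs, a ratio of 1.21 ± 0.07. Both groups were well apart in these 2 genes. Tpbg, a membrane glycoprotein with leucine-rich repeats, had 8.24, 7.69 and 11.2 RPKM in IP, against 3.01, 1.13 and 0.693 RPKM in the inputs. Input 1 was its highest input and input 3 its lowest, while IP 3 was its highest IP value, and its pair ratios were 1.20, 2.03 and 2.85.

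Pcdhgc5, a clustered protocadherin of neuronal cell adhesion, had 17.2, 7.06 and 21.6 RPKM in IP, against 4.84, 2.41 and 8.09 RPKM in the inputs, a ratio of 1.40 ± 0.21. The other C-type genes of the cluster, Pcdhgc3 and Pcdhgc4, had pair ratios of -0.08, -0.11 and -0.09, and of 0.09, 0.56 and 0.41. Genes of this cluster share their last exons, so the split of reads between them is uncertain. Dync1h1, the heavy chain of the dynein motor, had 41.8, 42.2 and 65.8 RPKM in IP, against 15.8, 15.1 and 27.7 RPKM in the inputs. Whrn, a scaffold of hair cell stereocilia and of axonal junctions, had 16.5, 16.6 and 19.8 RPKM in IP, against 6.62, 7.53 and 5.71 RPKM in the inputs. Zdhhc14, a palmitoyltransferase, had 14.9, 16.9 and 33.2 RPKM in IP, against 6.02, 4.53 and 5.77 RPKM in the inputs, with IP 3 high.

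The other 9 genes have roles in stress, metabolism, RNA binding or none that is certain. Srxn1, sulfiredoxin, which reactivates peroxiredoxins after oxidation, had one of the steadiest enrichments among abundant transcripts. It had 272, 229 and 207 RPKM in IP 1, 2 and 3, against 75.4, 72.2 and 59.4 RPKM in the inputs, a ratio of 1.76 ± 0.10, and the groups lay well apart. Hspa1a, an inducible heat shock protein, had 32.9, 12.04 and 8.34 RPKM in IP, against 4.76, 4.91 and 2.32 RPKM in the inputs, with IP 1 high. Hspa1b, a nearly identical copy, had 5.04, 2.89 and 1.29 RPKM in IP and 1.495, 1.04 and 1.06 RPKM in the inputs, so reads of the copies may be split between them.

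Nnmt, an enzyme that methylates nicotinamide, had 3.94, 12.1 and 3 RPKM in IP, against 1.32, 1.25 and 0.171 RPKM in the inputs. IP 2 was the high library, and without pair 2 its IP mean of 3.47 RPKM would have missed the floor. Pabpc4, a poly(A)-binding protein, had 17.8, 23.3 and 24.04 RPKM in IP, against 8.17, 10.1 and 10.8 RPKM in the inputs, the smallest mean ratio of the 48 at 1.09 ± 0.04. Pabpc1 had 0.57. Peg10, an imprinted gene derived from a retrotransposon, had 558, 225 and 216 RPKM in IP, against 140.0, 82.6 and 77.9 RPKM in the inputs, a ratio of 1.63 ± 0.31, while its neighbour Sgce, imprinted with it, had -0.25.

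Apold1, an immediate early gene first described in vessel endothelium, had 45.8, 23.3 and 12.3 RPKM in IP 1, 2 and 3, against 7.34, 3.86 and 1.76 RPKM in the inputs. Its pair ratios of 2.49, 2.32 and 2.26 were the most even among those above 2, although both fractions were highest in challenge 1 and lowest in challenge 3. Of 16 endothelial and mural markers 5 were listed, all with negative mean ratios. Their median of -0.20 lay close to the -0.17 over all rows, so no depletion of vessel markers is read from them. They summed to only 2.34 to 3.57 RPKM in IP and 5.94 to 8.07 RPKM in the inputs. The defining markers Cldn5, Cdh5 and Kdr were not among the listed rows. The part of vessel cells in the Apold1 values was not tested. Fam159a, now Shisal2a in RefSeq, had 19.5, 19.96 and 8.37 RPKM in IP, against 5.03, 3.94 and 1.38 RPKM in the inputs, a ratio of 1.94 ± 0.16. C030019I05Rik, now Fndc9, had 63.6, 32.4 and 44.6 RPKM in IP, against 19.8, 10.3 and 14.2 RPKM in the inputs, the narrowest span of pair ratios of the 48 (0.07). It lies inside Cyfip2 in RefSeq, which had a mean ratio of -0.23. Dbc1 had 40.9, 31.3 and 38.97 RPKM in IP, against 18.1, 14.6 and 14.9 RPKM in the inputs. RefSeq lists that symbol as an older name of both Brinp1 and Ccar2, and since Ccar2 has a row of its own under another older name, no role is given here.

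Crhbp, the transcript with the highest mean ratio, was compared with all genes having at least 1 RPKM in 3 libraries for likeness over the 6 libraries. The 5 rows most like it were Parp8, Nptx1, Slc7a1, Ddb1 and Rnf128, with Pearson correlations of log2(RPKM + 1) from 0.992 to 0.997. None of them is among the 48, and all had their highest value in IP 1. In that order their mean ratios were 0.24, 1.35, 0.79, 0.48 and 0.99, against 2.51 for Crhbp. The correlation thus reflects a shared pattern over libraries and not a like degree of enrichment. Nptx1, a neuronal pentraxin of synapses, had 52.4, 15.2 and 17.8 RPKM in IP and 12.4, 7.70 and 7.43 RPKM in the inputs.

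Wider lists of genes by role, which do not match the 6 groups above and hold only some of the 48, were read for their other genes. Outside the 48, limma called 2 of 118 listed transcription and chromatin regulators higher (Ier3, log2 fold 1.34, and Npas4, 1.48) and 3 lower (Hes5, -1.47, Id3, -1.79, and Zfp36l1, -1.50), with a list median of 0.02. Over all genes tested the median was -0.18, and 3.29% were called lower. Of 75 secreted peptide and growth factor genes only Vgf was higher (2.37), which was among the genes set aside, and none was lower by limma, while 9 were lower at an unadjusted p under 0.05. Among 89 kinases and phosphatases Pak6 was higher (1.10), and Pik3ip1 (-1.32) and Sgk1 (-1.35) were lower. Of 81 GTPases and their regulators 0 were higher by limma and 4 were at an unadjusted p under 0.05, and Rhou was lower (-1.44).

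Of 104 surface receptors, Gpr3 (1.24) and Sorcs3 (1.01) were higher and Lpar1 (-1.33) was lower. Of 114 channels and transporters 0 were higher by limma, 12 were at an unadjusted p under 0.05, and Slc25a23 was lower (-1.34). Of 168 synaptic, adhesion and cytoskeletal genes, Nlgn2 (1.29) and Pcdh17 (1.02) were higher and 0 lower (6 at an unadjusted p under 0.05), with a median of 0.26. Among 137 adaptors, enzymes and turnover factors, Midn (1.66), Fam19a2 (1.38), Eef1a2 (1.08), Srrm4 (1.06) and Ccrn4l (0.93) were higher, or 3.65%, and Fam107a (-1.53), Ppp1r16b (-1.10) and Necab1 (-0.92) lower. Apart from that list the shares of higher calls ran from 0% to 1.92%, beside 0.892% of all genes, with 6 of the 8 lists above that share and 2 at 0%.

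Markers of other cells were mostly lower in IP, apart from those of red blood cells. None of the 48 is on those lists, though Hba, Hbb, Rgs and Kcn symbols had been set aside beforehand. Of 18 oligodendrocyte rows 17 had negative mean ratios, and they summed to 433 to 626 RPKM in IP and 1289 to 1406 RPKM in the inputs. Of 16 astrocyte rows 14 were negative, with sums of at most 521 RPKM in IP and at least 596 RPKM in the inputs. All 11 microglial rows were negative, with sums of at most 21.0 RPKM in IP. Median ratios of these lists were -1.59, -0.61 and -0.35, against -0.17 over all rows, most of which were thus negative too. Limma called 12 of 18 oligodendrocyte, 0 of 16 astrocyte and 0 of 6 tested microglial rows lower (14, 8 and 1 at an unadjusted p under 0.05), beside 3.29% of all genes. Of 7 red blood cell rows 4 were positive, with a median ratio of 0.53. They summed to 281 to 758 RPKM in IP and 232 to 320 RPKM in the inputs. Of 5 tested by limma 3 were called higher: Hba-a1 (2.90), Hba-a2 (2.90) and Hbb-b1 (3.26). Of 19 pan-neuronal rows 12 were positive, with a median ratio of 0.21 and sums of 5837 to 9340 RPKM in IP and 6502 to 7783 RPKM in the inputs. An IP and its input come from the same warm challenge, so their ratio does not measure numbers of cells. Why these markers differed was not tested, nor was the part of cell makeup in the ratios of the 48. Summed over the 48, RPKM came to between 0.593% and 1.23% of an IP library and between 0.193% and 0.259% of an input.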

How the data were processed

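The deposited table lists RPKM per gene for the 3 IP and 3 input libraries. The authors made the RPKM values from reads placed on mm9, per the submitters' processing notes. Aligner, counter, annotation and read depth were not given in the sources used here, so no interval for counting error is given. Per the labels' protocols, RNA was amplified with a kit (Ovation RNA-Seq V2), which can widen the spread of low transcripts. The smallest listed value is 0.101 RPKM.

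Ratios were log2((IP + 1)/(input + 1)) within each numbered warm challenge. Full values follow a rule covering the transcripts with the largest lowest ratio, the most abundant and those nearest the limit; every other member is also given. limma 3.58.1 in R 4.3.3 was run, two-sided, on log2(RPKM + 1) with a trend over genes with at least 1 RPKM in 3 libraries, with Benjamini-Hochberg adjustment and a threshold of 0.05. It was tested on simulated data. The number shared by an IP and an input marks the same warm challenge per the labels. The deviations of same-numbered libraries from their group means correlated at 0.05, 0.61 and 0.27. For libraries of unlike number the correlations ran from -0.52 (IP 2 with input 3) to 0.18 (IP 1 with input 3). IP 1 thus correlated more with input 3 than with input 1. Gene order, names and promoters came from RefSeq (GRCm38.p6), matching 47 of the 48 symbols to 1 gene each. Python 3.11.15 and matplotlib 3.10.9 were used otherwise. The members and lists were chosen with earlier results of these data known. Protein features were not analysed here. Alternatives were the pseudocount, scaling, floor, threshold, pairing and leaving out libraries.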

Additional observations from a re-analysis of the deposited data

How the results depend on the processing

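The number of transcripts chosen was 48, and became 21 with a pseudocount of 5, 87 with median scaling, 78 with quantile normalization, 10 with a threshold of log2 1.5, 148 when the mean of the pairs had to pass, and 57 to 208 when a pair was left out. With no replicate block, that is with every IP set against every input, 13 met the limit. All 48 were among those chosen under median scaling and 47 under quantile normalization. The median log2 ratio of 1.62 became 1.70 with a pseudocount of 0.1, 1.26 with 5, 1.82 with median scaling and 1.72 with quantile normalization, and ran from 1.46 to 1.58 without a pair. The 35 called by limma became 46 with the replicate block and 0 to 43 without 1 library. The share of held-out rows past the limit in pair 1 became 30.6% with quantile normalization. For the 30 genes named by rule, the 210 values under the alternatives ran from 0.72 to 3.12. Each of these genes met the limit or lay just outside it, so values above 0 follow largely from the choice. Of the 210 values, 31 moved by more than 1 SD over pairs. The cause of these shifts was not tested. Read depth is unknown, so low transcripts such as Nnmt cannot be given a counting error.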
